A study of Mus musculus with 6 samples.

Results

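The cytosolic ribosomal protein genes were taken by symbol from a table of read counts for heart ventricles of newborn mice. A symbol counted when it began with Rpl or Rps, went on with digits and ended there or with a single a, l or x, and Rplp0, Rplp1, Rplp2 and Rpsa were added. The rule found 81 of the 24062 symbols in the table, 49 of the large subunit and 32 of the small subunit, counting Rpsa with the small one and the stalk genes with the large one. After the low-count filter 75 of the 81 were tested, among 13629 genes in all. The 6 that were not tested, Rpl10l, Rpl23a, Rpl26, Rpl30, Rpl39l and Rps27, had too few counts in both groups.

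RNA sequencing covered both ventricles of male C57/Bl6N mice at P1 (1 day old), with 3 libraries of controls without Cre (CreNEG) and 3 of mice with a cardiac-specific knockout of Med12 (Med12cKO, CrePOS). Med12 encodes a subunit of the kinase module of Mediator, which passes signals from DNA-bound factors on to RNA polymerase II. The labels do not name the promoter that drives Cre and do not say which animal gave which library. The p-values reflect only how far these samples spread, which may in part be technical. Only the Med12cKO mice carried Cre, and an effect of Cre itself and of the loss of Med12 cannot be told apart. In bulk tissue RNA, fewer cells of a type and less RNA per cell cannot be told apart either.

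Ribosomal proteins assemble with ribosomal RNA into the small subunit, which decodes the mRNA, and the large subunit, which joins the amino acids. Their mRNAs are abundant in growing tissue and in mammals usually start with a run of pyrimidines, the 5′ terminal oligopyrimidine (TOP) tract, through which growth signalling sets their translation. Their genes have spawned very many processed pseudogenes, DNA copies of the mRNA, and reads from a gene and from a near-identical copy can be hard to assign. After birth, heart muscle cells of the mouse change from dividing to enlarging, a growth that rests on protein synthesis.

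Stretches near the starts of 8 of these genes show a run of pyrimidines. RefSeq (GRCm38.p6) gave a window around the start for 60 of the 81 genes, and CTCTTTC or its reverse complement lay in the window of 17 of the 60 (28.3%), against 9.28% of the 27025 genes with a window. The stretches of 30 bases below are those in which CTCTTTC, in capitals, ran in the direction of transcription near or after the annotated start, in order of the genes' level. They lie at chr7:118116142-118116171 (minus strand), chr10:128626483-128626512 (minus), chr7:45718061-45718090 (plus), chr16:33056471-33056500 (plus), chr5:107900497-107900526 (plus), chr2:39005113-39005142 (minus), chr7:4792954-4792983 (plus) and chr11:68901578-68901607 (plus).
Rps15a: cccggcccactCTCTTTCtgccatcttccc
Rps26: gccgccggatcCTCTTTCgagtcttggctc
Rpl18: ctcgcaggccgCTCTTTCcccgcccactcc
Rpl35a: ggcttgccttcCTCTTTCcgccatcttggc
Rpl5: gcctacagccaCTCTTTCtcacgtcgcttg
Rpl35: cccgccctttcCTCTTTCtctcgaaccagg
Rpl28: ctctcgtgtctCTCTTTCcgtctccggccg
Rpl26: cgcgtgtagttCTCTTTCcttttgcggcca
The match began on the first transcribed base of the RefSeq annotation, position 0, in Rpl35 and Rpl28 and on position 1 in Rpl18. It began further into the transcript in Rps26 (position 5), Rpl26 (23) and Rpl35a (29), and before the annotated start in Rps15a (−13) and Rpl5 (−20). Of 3 other motifs searched on both strands, CCGGAAG, the core of ETS family sites, lay in 25 of the 60 windows (41.7%, against 9.93% of all genes). AAGATGGC, the core of the YY1 site, lay in 5 (8.33%, against 3.19%), and CACGTG, the E-box, in 6 of the 60 (10%, against 8.09%). These matches describe letters in the windows and were not tied to the counts.

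Copies of the genes are shown for 2 members. Rpl14 and the pseudogene Rpl14-ps1, which has a row of its own in the table, are given over coding bases 403 to 462 of Rpl14, counted from the first coding base. Rpl18, the member with the smallest p-value, is given over bases 184 to 243 beside Gm13436, the pseudogene that shares most of its sequence. The sequences are from GENCODE M21 on GRCm38, set side by side without gaps, with bases that differ at the same position in capitals. The capitals at the end of the Rpl14 pair are also what a missing gcg in Rpl14-ps1 would give.
Rpl14: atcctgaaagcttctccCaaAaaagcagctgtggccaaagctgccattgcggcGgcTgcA
Rpl14-ps1: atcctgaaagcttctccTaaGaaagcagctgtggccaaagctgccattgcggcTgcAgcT
Rpl18: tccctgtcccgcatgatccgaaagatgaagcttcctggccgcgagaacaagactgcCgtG
Gm13436: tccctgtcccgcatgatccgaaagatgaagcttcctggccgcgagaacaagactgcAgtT
Rpl18 lies at chr7:45715457-45720836 and Gm13436 at chr2:36807826-36808392. Over the 564 coding bases of Rpl18 the copy differed at 4, an identity of 99.3%. Rpl14 lies at chr9:120571444-120574654 and Rpl14-ps1 at chr7:45324965-45325617, and 77.7% of the coding windows of 50 bases of Rpl14 occur unaltered in the pseudogene. Set side by side without gaps, 127 of 651 coding bases differed (80.5% the same), and the stretch was chosen to hold at most 5 differences. Without gaps, a missing or added base makes the bases after it count as differing. The 80.5% is therefore not the identity of an aligned copy.

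Across the study, total counts per library ran from 8453346 to 10911698. Med12 itself was at 103, 176 and 113 CPM (read counts scaled to the library's total) in control replicates 1 to 3 and at 61.6, 85.0 and 41.3 in Med12cKO replicates 1 to 3, and the groups did not overlap. Its log2 fold change was −1.06 (SE 0.30), with an adjusted p of 0.765 in edgeR's quasi-likelihood test and of 0.024 in DESeq2. The exact two-sided permutation p was 0.10, the smallest that 20 arrangements can give. Summed thymus and T-cell markers reached 839 CPM in control replicate 3 and 845 in Med12cKO replicate 1, against 3.43 to 5.52 CPM in the other libraries, so 1 library of each group stood apart by thymus transcripts. All 13 cardiomyocyte markers were detected, and all 13 had negative fold changes (median −0.26), against 47.8% of all genes tested. The values ran from −1.24 (Myh7) to −0.01 (Actn2). Of the 13, edgeR called 0 and DESeq2 called 2, Pln (−0.76) and Ryr2 (−0.78), against 0.489% of all genes in DESeq2. Summed, the markers lay between 54192 and 68650 CPM in controls and between 43381 and 54862 CPM in Med12cKO. Their part in the results below was not tested. All CPM values are scaled by TMM, edgeR's factor for library composition, with the exception of shares of raw counts.

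No ribosomal protein gene changed between Med12cKO and control ventricles at an adjusted p under 0.05. The count was 0 of 75 in edgeR, where 0.022% of all genes passed. DESeq2 gave a fold change for 80 members and called 0, and the adjusted p of 10 of them was undefined. Of the 12475 genes with an adjusted p in DESeq2, 0.489% passed. At an unadjusted p under 0.05 edgeR gave 2 of the 75, both lower in Med12cKO, against a background of 3.78% of all genes (1.61% lower). DESeq2 gave 2 of the 80, against 2.63% of 18649 genes (1.09% lower, 1.54% higher). The median log2 fold change of the 75 was 0.02, with quartiles of −0.05 and 0.06, beside a median of 0.01 for all genes tested. By subunit the median was 0.02 over 44 large-subunit genes and 0.01 over 31 small-subunit genes. Of the 75, 34 had a negative and 41 a positive value, and 47.8% of all genes were negative. The fold change was within 0.1 of 0 in 50 members, and 7 (9.33%) lay at 0.25 or beyond, against 17.7% of all genes.

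The median standard error was smaller among members with higher counts, but the ranges overlapped. Among the 30 members with a mean log2 CPM of at least 6 the median standard error of the log2 fold change was 0.16. The errors ran from 0.116 to 0.423, and 1 of the 30, Rpl29, had a fold change at 0.25 or beyond. Among the other 45 the median standard error was 0.22, with a range of 0.123 to 0.392. A fold change that misses the threshold at this precision does not show that a gene was equal in both groups.

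**Figure D1:**
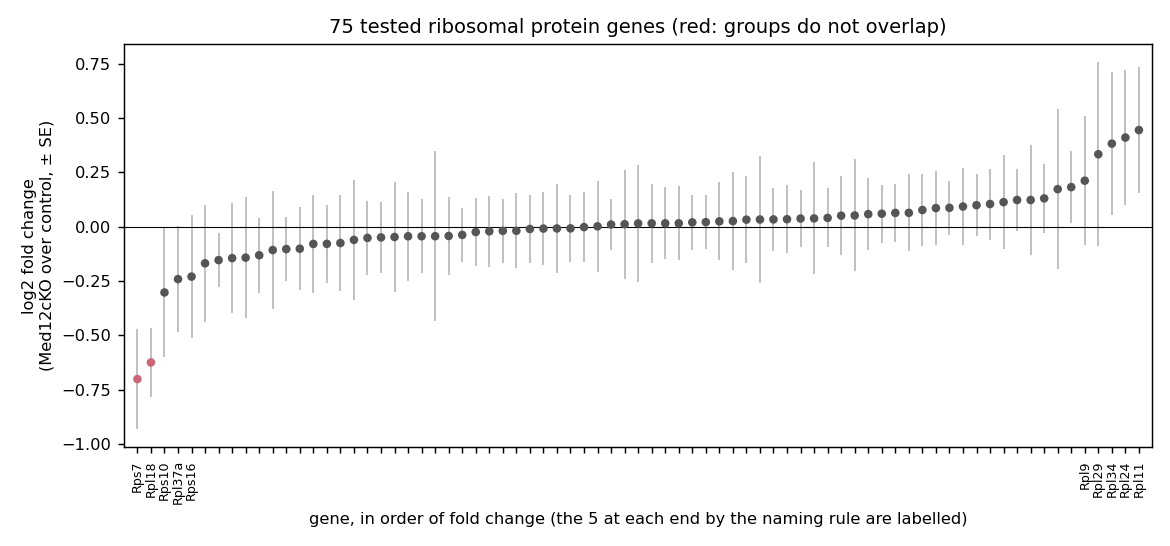
Log2 fold change (Med12cKO over control, vertical axis) of the 75 tested ribosomal protein genes in order of size (horizontal axis), with bars of 1 SE from edgeR. Most points lie near 0, and the 2 in red at the left, Rps7 (−0.70) and Rpl18 (−0.62), are those whose libraries do not overlap between the groups.

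In 2 of the 75 genes every Med12cKO library lay below every control library, and in 0 every one lay above, where 3.64% and 4.59% of all genes tested did so. Rpl18, a protein of the large subunit, was at 24.9, 21.4 and 24.6 CPM in the controls and at 13.98, 14.3 and 17.6 CPM in Med12cKO. The means were 23.6 ± 1.90 and 15.3 ± 2.03 CPM (SD, n = 3), so that the Med12cKO level was 64.8% of the control level. Its log2 fold change was −0.62 (SE 0.16), with an adjusted p of 0.507 in edgeR and 0.264 in DESeq2, and over the 19 alternative settings the fold change ran from −0.74 to −0.53. Of its exon bases, 9.23% also belong to Sphk2, a gene on the other strand, and 9.71% of its coding windows of 50 bases occur in no other annotated gene, so its value is uncertain to that extent.

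Rps7, a small-subunit protein known for a part in the processing of ribosomal RNA, was at 12.4, 8.19 and 8.23 CPM in the controls and at 5.53, 5.92 and 6.24 CPM in Med12cKO. The means were 9.62 ± 2.44 and 5.90 ± 0.359 CPM (SD, n = 3), and control replicate 1 stood above the other controls. The log2 fold change was −0.70 (SE 0.23) with an adjusted p of 0.882 in edgeR, and over the 19 settings it ran from −0.80 to −0.47. The gene lies at chr12:28630854-28635953 and shares no exon bases with another gene model, while 4.69% of its coding windows were unique. The 250 bases before its start are shown because Rps7 had the lowest fold change of the members, with a match to CTTCCGG, the reverse complement of the ETS core, in capitals (chr12:28635954-28636203, minus strand, RefSeq, GRCm38.p6).
Rps7: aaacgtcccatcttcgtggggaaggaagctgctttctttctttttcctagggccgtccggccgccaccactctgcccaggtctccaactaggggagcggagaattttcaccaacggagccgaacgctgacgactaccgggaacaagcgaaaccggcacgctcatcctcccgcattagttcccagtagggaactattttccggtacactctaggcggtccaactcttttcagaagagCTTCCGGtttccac

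The other genes at the ends of the range overlapped between the groups. On the lower side, Rps10, near the entry of the mRNA channel, was at 11.4, 6.57 and 6.89 CPM in controls and at 5.53, 5.53 and 9.04 CPM in Med12cKO (log2 fold change −0.30, SE 0.30). Rpl37a, a zinc-binding protein of the large subunit, had −0.24 (SE 0.25) and Rps16, whose tail reaches the site of tRNA binding, −0.23 (SE 0.28). In Rps10 the high control was replicate 1 and the high Med12cKO library was replicate 3, and 28.7% of its exon bases are shared with other gene models.

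On the higher side, Rpl11, which together with Rpl5 and 5S ribosomal RNA can bind the p53 regulator Mdm2, was at 1.84, 2.67 and 2.01 CPM in controls and at 3.27, 3.06 and 2.58 CPM in Med12cKO. The log2 fold change was 0.44 (SE 0.29), and control replicate 2 lay above Med12cKO replicate 3. Its reads numbered only 16 to 31 per library. Rpl24, part of a bridge between the subunits, had 0.41 (SE 0.31) and Rpl34 had 0.38 (SE 0.33), both from 13 to 32 counts per library. Of the exon bases of Rpl24, 47.0% also belong to Gm28037, and 0% of its coding windows were unique. Rpl9, at the base of the stalk, had 0.21 (SE 0.30).

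Rpl29 had the widest spread of the well-counted members. It was at 83.7, 70.2 and 128 CPM in the controls and at 65.4, 107 and 183 CPM in Med12cKO (log2 fold change 0.33, SE 0.42). Both groups covered a large range, and the lowest library of all was Med12cKO replicate 1. The gene shares coding windows with 81 annotated pseudogenes, and 9.74% of its windows were unique. Without Med12cKO replicate 3 the fold change was −0.12, and without the 2 libraries with thymus transcripts it was 0.91.

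**Figure D2:**
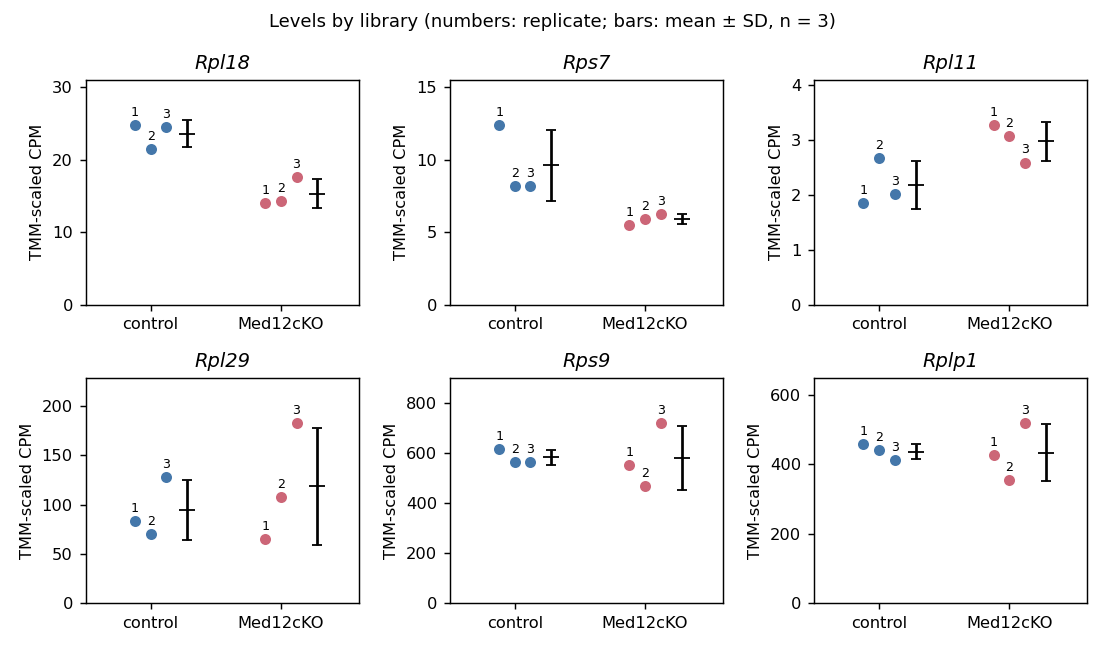
TMM-scaled CPM (vertical axes, each from 0) of 6 ribosomal protein genes in the control (blue) and Med12cKO (red) libraries, with replicate numbers and the mean ± SD (n = 3). The groups stand apart in Rpl18 and Rps7 and overlap in Rpl11, Rpl29, Rps9 and Rplp1, and Med12cKO replicate 3 is the highest library in the last 3 of these.

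The same libraries were high or low in most of the genes. In Med12cKO replicate 3 the members lay above the mean of the controls by a median log2 ratio of 0.25, and in Med12cKO replicate 2 they lay below it by a median of −0.24. The remaining medians were 0.13, −0.06 and −0.08 in control replicates 1 to 3 and −0.07 in Med12cKO replicate 1, where the medians over all genes tested lay between −0.02 and 0.00. Thus the highest and the lowest library both belonged to Med12cKO, and the controls fell between them.

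Counted by gene, Med12cKO replicate 3 was the highest of the 6 libraries in 53 of the 75 members (70.7%), against 25.6% of all genes tested. Med12cKO replicate 2 was the lowest in 46 (61.3%), against 22.6% of all genes. Replicate 3 lay above replicate 2 in 66 of the 75 (88.0%), against 50.6% of all genes. These counts compare single libraries and say nothing of the groups.

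As a share of all counts, the 81 genes took 0.971%, 0.864% and 0.918% in the controls and 0.934%, 0.784% and 1.09% in Med12cKO. The 95% Wilson intervals reached at most 0.0066 percentage points to either side and cover counting error only, as several reads can stem from 1 molecule. The means were 0.918% ± 0.0536 and 0.936% ± 0.153 (SD, n = 3). The difference of 0.0177 percentage points was smaller than the spread between libraries of a group, and the Med12cKO libraries bracketed all 3 controls. It was −0.0592 without Med12cKO replicate 3, 0.0938 without Med12cKO replicate 2, 0.0444 without control replicate 1 and −0.00915 without control replicate 2.

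Genes with short transcripts had the same highest and lowest libraries. Over 1088 other genes with a transcript of at most 1 kb the median log2 ratios were 0.13, −0.07 and −0.07 in the controls and −0.06, −0.14 and 0.22 in Med12cKO. A trend with gene length (all exons of a gene together) and GC content was fitted on genes with a mean log2 CPM above 3. When it was taken out of each library, the members' medians drew in to 0.01, −0.01 and −0.02 in the controls and to −0.02, −0.12 and 0.06 in Med12cKO. Med12cKO replicate 2 then stayed the lowest library and replicate 3 the highest, at less than the earlier distance. The short genes' medians after the correction were 0.04, −0.01 and −0.03 in the controls and −0.02, 0.0007 and 0.03 in Med12cKO. In Med12cKO replicate 2 the members thus stayed low where the short genes did not. With that correction in the edgeR fit, the members' median fold change was −0.01 and 44 of 75 were negative.

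**Figure D3:**
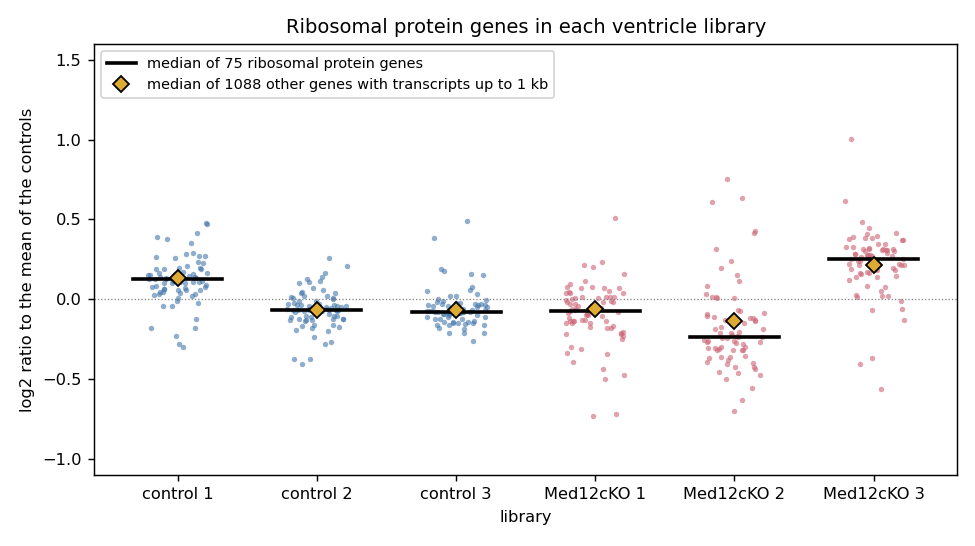
Log2 ratio of each tested ribosomal protein gene to the mean of the controls (vertical axis, 0.5 CPM added) in the 6 libraries (horizontal axis), with black bars for the median of the 75 genes and diamonds for the median of 1088 other genes with short transcripts. Med12cKO replicate 3 (0.25) and Med12cKO replicate 2 (−0.24) stand at the 2 ends, and the diamonds are highest and lowest in the same libraries.

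The sign of the overall difference turned on which libraries were included. Without Med12cKO replicate 3 the median log2 fold change was −0.15 and 64 of 77 genes were negative. Without Med12cKO replicate 2 it was 0.11 and 16 of 75 were negative. The sample descriptions open with a letter, I or J, whose meaning the labels do not give. Among the 4 libraries with I the median was 0.18 with 10 of 75 negative, and between the 2 libraries with J, 1 per group and without a test, it was −0.34 with 63 of 75 negative. In each of these fits with a test the number of members called was 0. Without the 2 libraries with thymus transcripts the median was −0.001.

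**Figure D4:**
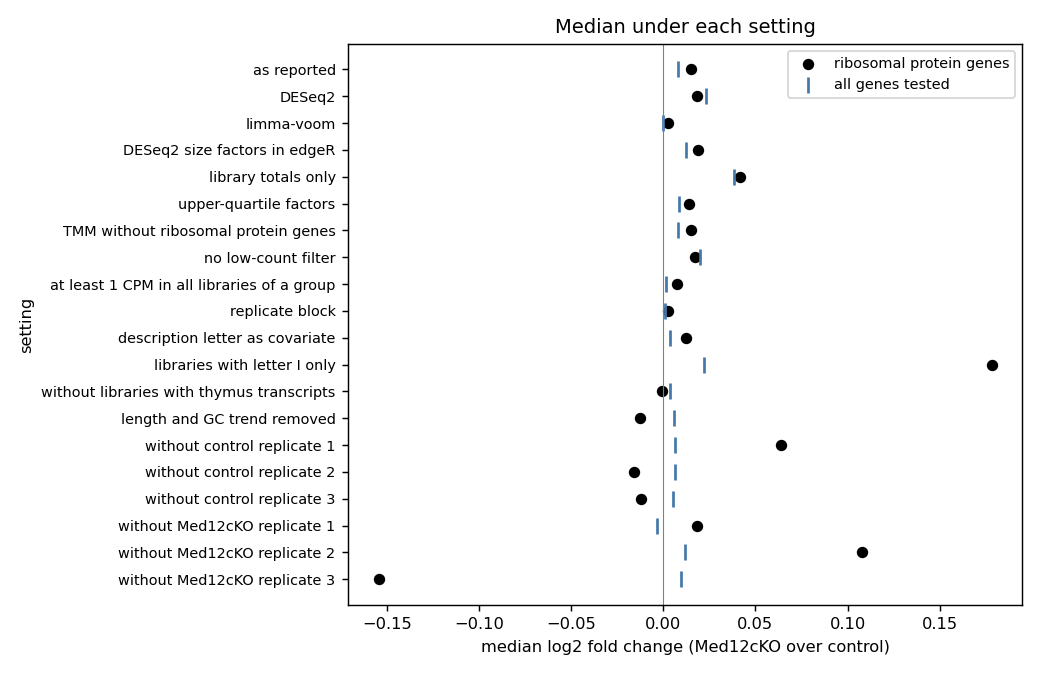
Median log2 fold change (horizontal axis) of the ribosomal protein genes (dots) and of all genes tested (bars) under each setting (vertical axis). Changes of tool or scaling leave the dots within 0.05 of 0, while leaving out Med12cKO replicate 3 gives −0.15 and keeping only libraries with letter I gives 0.18.

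In levels the members covered a wide range, given here as CPM per kb of transcript, the mean of all 6 libraries. Among the highest were Rplp1 of the stalk at 872, Rps9 at 773, Rpl41, the smallest ribosomal protein, at 686, and Rpl8, close to the site of peptide bond formation, at 674. The lowest among those tested were Rpl11 (3.09), Rpl37 (3.16) and Rpl24 (3.26). The median over all 81 was 28.7 CPM per kb, 24 members lay above 100 and 24 below 10.

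Rpl26, a protein at the exit of the nascent chain, had a count of 0 in all 6 libraries. A count of 0 allows up to 3 counts, which is 0.286 to 0.345 TMM-scaled CPM at these depths. This bound covers reads assigned to the gene. It does not bound the level of the mRNA, as the handling of reads with several matches is not given. Rpl23a, Rpl30 and Rps27 had means of 0.916, 0.811 and 1.05 CPM. By the window measure explained in the next paragraph, 0% of the coding windows of Rps27 and Rpl23a, 12.7% of those of Rpl26 and 16.9% of those of Rpl30 were unique, where the median over the members was 8.70%.

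Members whose coding sequence has exact copies elsewhere had lower levels on the measure used here. Coding sequences were read in windows of 50 bases, and a window was unique when it occurred in the transcripts of no other GENCODE M21 gene on either strand. The 29 members with no unique window had a median of 10.7 CPM per kb, the 15 with up to 10% unique windows 33.5, the 18 with 10 to 30% 66.0 and the 19 with more than 30% 482. Exceptions went both ways. Rpl41 had no unique window and 686 CPM per kb. Rpl3l and Rpl39l, with 100% unique windows, stood at 4.84 and 0.492 CPM per kb, and Rpl10l, with 87.5%, at 0.0175. Spearman's rho between the share and the level was 0.474 over the 81 genes. It was 0.622 over the 76 without a symbol ending in l, a subset that leaves out Rpl3l, Rpl39l and Rpl10l. The members share libraries and counting, and each value is a description across genes that are not independent.

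The value over all 81 genes was the highest of 7 ways of measuring uniqueness, and it was preferred after several of the others had been seen. With windows over whole transcripts in place of the coding part, rho was 0.287, 0.353 and 0.362, depending on the transcript chosen. Allowing 2 mismatches over whole transcripts lowered it to 0.0842 and 0.136. Allowing 2 mismatches within the coding part gave 0.445. All 7 were positive, and those over whole transcripts with mismatches were close to 0. The bounds of the 4 classes were also set after the values were seen.

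**Figure D5:**
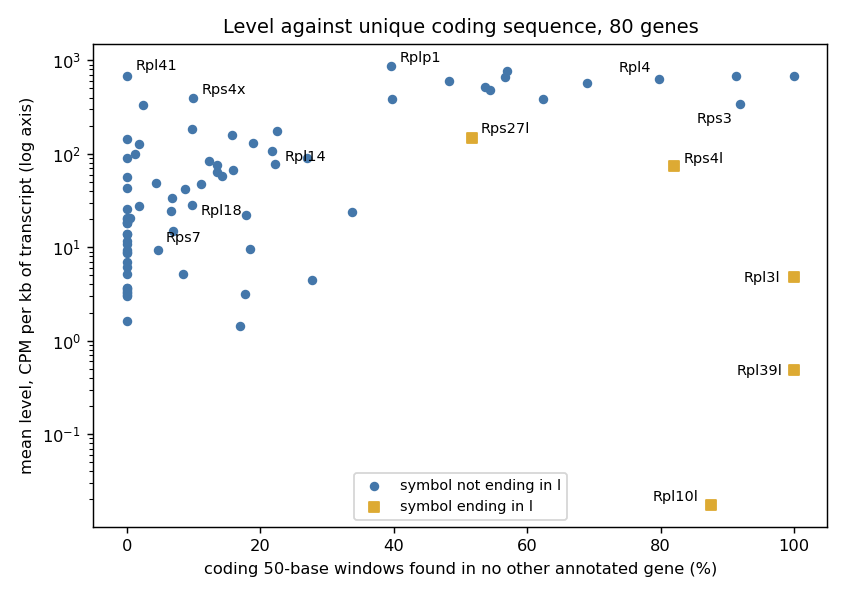
Mean level in CPM per kb of transcript (vertical log axis) against the share of coding windows of 50 bases found in no other annotated gene (horizontal axis, %), for 80 of the 81 ribosomal protein genes (Rpl26, at a count of 0, has no place on the log axis). Genes with a share of 0 run from 1.64 to 686 CPM per kb, and squares mark symbols that end in l.

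Pseudogenes share windows with 78 of the 81 members, 1083 pseudogenes in all, and 3 members share none. Of these pseudogenes 15 have a row in the table, and 4 had a mean of at least 1 CPM. Rpl14-ps1 stood at 310 CPM, above the 78.0 CPM of Rpl14 itself. Rps15a-ps4 was at 65.5 and Rps15a-ps6 at 14.8 CPM, beside 101 CPM for Rps15a. Exon bases shared with another gene model were found in 37 members, at 10% or more in 15. How reads with several matches and reads from either strand were counted is not given in the sources used here, and the levels of these members are uncertain to that extent.

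The stalk proteins, which recruit the elongation factors, did not differ between the groups beyond their spread. Rplp0 was at 557, 547 and 513 CPM in controls and at 476, 434 and 596 in Med12cKO (log2 fold change −0.10, SE 0.15). Rplp1 had −0.01 (SE 0.16) and Rplp2 0.11 (SE 0.22). Rplp2 stood at 23.6 CPM per kb, far below Rplp1 at 872 and Rplp0 at 383. Of the coding windows of Rplp2 33.8% were unique and 66.2% also occur in Wdr89. In Rplp1 39.6% and in Rplp0 39.7% were unique, so the levels of these genes are uncertain to that extent. Rpsa, a small-subunit protein also known as a laminin receptor, had 0.03 (SE 0.16).

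Further members were named for roles beyond or within the ribosome. Rps6, the substrate of S6 kinase in growth signalling, was at 13.3, 10.3 and 11.4 CPM in controls and at 13.5, 11.7 and 12.1 in Med12cKO (log2 fold change 0.09, SE 0.18). Rpl5, the partner of Rpl11, had 0.06 (SE 0.13) and Rpl23, another protein that can bind Mdm2, 0.06 (SE 0.13). Rps19, mutated in Diamond-Blackfan anaemia, had −0.13 (SE 0.17) and was lowest in Med12cKO replicate 2 (61.2 CPM) and highest in Med12cKO replicate 3 (99.2 CPM).

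Some ribosomal proteins have a second gene used in certain tissues. Rpl3l, which takes the place of Rpl3 in striated muscle, was at 9.32, 4.95 and 6.12 CPM in controls and at 6.65, 5.43 and 7.43 in Med12cKO. Its log2 fold change was −0.06 (SE 0.28), and that of Rpl3 was 0.09 (SE 0.12). Per kb, Rpl3l stood at 4.84 CPM and Rpl3 at 48.5, so in these newborn ventricles the general form was the higher one, with all coding windows of Rpl3l unique and 4.31% of those of Rpl3. Rpl10l, known from testis, had 1 count in all 6 libraries together, while Rpl10 on the X chromosome stood at 19.97 CPM per kb (log2 fold change 0.18, SE 0.17). Rpl39l had 0 to 6 counts per library, and Rpl39 stood at 75.2 CPM per kb (0.03, SE 0.20).

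Rps27l, a p53-responsive relative of Rps27, was at 148 CPM per kb against 3.05 for Rps27, whose windows are all shared with other genes, and had a log2 fold change of 0.02 (SE 0.18). Rps4l, annotated as a transcribed processed pseudogene, stood at 73.6 CPM per kb beside 398 for Rps4x. Their log2 fold changes were 0.12 (SE 0.14) and 0.04 (SE 0.13). Rpl22 had −0.04 (SE 0.13). Its relative Rpl22l1, outside the symbol rule, was at 16.8, 15.9 and 15.7 CPM in controls and at 9.81, 9.18 and 16.6 in Med12cKO (−0.44, SE 0.24, adjusted p 1.00 in edgeR), with Med12cKO replicate 3 inside the control range. Rpl36a had −0.11 (SE 0.27) and Rpl36al 0.06 (SE 0.15).

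Genes that work with the ribosomal proteins were counted from lists, and edgeR called 0 in each, beside 0.022% of all genes. Of 9 tested ribosomal protein genes and relatives outside the symbol rule, such as Fau and Gnb2l1 (the small-subunit protein RACK1), the median log2 fold change was 0.02, and their library medians were lowest in Med12cKO replicate 2 (−0.28) and highest in Med12cKO replicate 3 (0.23), as in the members. The 13 elongation factors had a median of 0.04 and the 39 initiation factors −0.01. Of 65 genes of ribosome assembly and rRNA processing 42 were positive (median 0.03), and Ipo5, an importer of ribosomal proteins into the nucleus, had 0.27 (SE 0.12). Of 15 genes of RNA polymerase I and its factors, which make ribosomal RNA, 11 were negative (median −0.04). Of 37 regulators of TOP mRNAs and growth signalling 25 were negative (median −0.04), and of 12 hosts of small nucleolar RNAs 10 were positive (median 0.10). Of all genes tested 47.8% were negative. The library medians of the hosts were 0.13, −0.13 and 0.03 in controls and −0.01, 0.03 and 0.22 in Med12cKO, highest in Med12cKO replicate 3.

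A list of 13 genes held p53 itself (Trp53), a factor that responds when ribosomal proteins are out of balance, and targets of it. Their median log2 fold change was 0.15, with 7 positive and 6 negative, Mdm2 (−0.15, SE 0.11) and Trp53 (−0.01) among the negative ones. In 4 of the 13 every Med12cKO library lay above every control (4.59% of all genes), and 2 had an unadjusted p under 0.05 with a higher value (2.16% of all genes). Cdkn1a, an inhibitor of the cell cycle, was at 42.9, 30.1 and 29.8 CPM in controls and at 53.8, 52.0 and 42.9 in Med12cKO (log2 fold change 0.53), so control replicate 1 and Med12cKO replicate 3 were level to the digits given. Ccng1, a cyclin induced by p53, was at 328, 338 and 295 CPM and at 386, 413 and 376 CPM (0.29). Neither passed at an adjusted p under 0.05 in edgeR or DESeq2.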

How the data were processed

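The authors deposited raw read counts per gene symbol for the 6 ventricle libraries, whole numbers without normalization. Per the submitters' processing notes the tools were TopHat2 2.0.0, featureCounts and edgeR 3.14.0 on GRCm38 (mm10), while annotation, strand, multiple matches and filters are not given in the sources used here. Groups and replicate numbers came from the sample titles.

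The counts were fitted with edgeR 4.0.16's quasi-likelihood F test (robust, TMM, R 4.3.3) after filterByExpr (count of 10 or more, total of 15 or more), with Benjamini-Hochberg adjustment over all genes tested and a threshold of 0.05. The SE is the absolute log2 fold change over the square root of F. Alternatives were DESeq2 1.42.0, limma-voom (limma 3.58.1), other scaling factors and filters, the replicate number or description letter in the model, subsets of libraries, each library left out, and a length and GC offset (splines with 4 degrees of freedom). The fits were tested on simulated counts with known changes. Of the 1.5-fold changes edgeR recovered 16% and DESeq2 26%, and of the 2-fold changes 54% and 68%. False calls numbered 10 in edgeR and 31 in DESeq2. Depth ran from 8453346 to 10911698 counts.

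Positions and transcripts came from GENCODE M21 (GRCm38), with the shortest principal transcript for lengths, and windows with mismatches were matched with bwa 0.7.19. For the length and GC offset, length was that of all exons of a gene together. Length and GC values were found for 95.6% of the genes tested. Genes were named by rule: those called, the 5 largest changes in each direction at a mean log2 CPM of at least 1, paralog pairs, stalk genes and Rpsa, genes with known further roles, the 5 highest and 3 lowest levels per kb, and genes whose groups do not overlap. Rpl29's spread, Rpl14, Rps15a, Rpl23a and Rpl30 were added after their values were seen, as were some genes that illustrate sequences. Results for some single genes are left out of the text; those genes stayed in every count and fit. The members and lists were chosen with earlier results of these data known. The transcript choice, the window measure and its classes, the comparison with transcripts up to 1 kb, the split at a log2 CPM of 6, the bounds of 0.1 and 0.25, the motifs, the stretches shown and the comparison within letter J were chosen after seeing the data.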

Additional observations from a re-analysis of the deposited data

How the results depend on the processing

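The number of ribosomal protein genes called was 0 under all 19 alternatives run. Their median log2 fold change, 0.02 as reported, ran from −0.15 to 0.11 when each library was left out and was 0.18 in the libraries with letter I. It was negative without control replicates 2 and 3 (−0.02 and −0.01), without Med12cKO replicate 3, without the libraries with thymus transcripts and with length and GC removed (−0.01). These shifts were smaller than the pooled SD of the medians of single libraries (0.193). That SD describes single libraries and not a difference between group means, and Med12cKO replicates 2 and 3 are part of it. The cause of the shifts was not tested. The replicate numbers come from the titles only, and same-numbered libraries deviated together in replicate 2 only (correlations −0.31, 0.44 and −0.35). The highest correlation of any control with any Med12cKO library was 0.71, between control replicate 3 and Med12cKO replicate 1, the libraries with thymus transcripts. With the replicate number as a block (replicate block), 0 were called and the median was 0.0025, and 2 genes of the whole table passed, against 3 without it. For Med12 DESeq2 gave the same fold change as edgeR, −1.06, and called it (adjusted p 0.024). Counted over all genes, DESeq2 called 61 and edgeR 3.

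Of the 10 genes named for their fold change, 4 changed sign in 1 alternative each, at a fold change none of the settings called: with letter I only, Rps10 was 0.12 and Rpl37a 0.047, without Med12cKO replicate 3 Rpl29 was −0.12, and without Med12cKO replicate 2 Rpl9 was −0.10. With each library left out in turn Rpl29 ran from −0.12 to 0.62 and Rpl9 from −0.10 to 0.37. Among the 24 tested genes named for role, paralog pair or level, 54 of 456 values had the other sign, in 20 genes whose reported log2 fold changes were at most 0.13 in size. The share of counts differed between groups by 0.00506 to 0.0177 percentage points under its other definitions, and from −0.0592 (without Med12cKO replicate 3) to 0.0938 (without Med12cKO replicate 2) with each library left out. The table held 0 genes of the mitochondrial genome, so leaving these out changed nothing. Low counts limit the 45 tested members below a log2 CPM of 6.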
